A study of Drosophila melanogaster with 15 samples.

Results

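Somatic cells of the Drosophila melanogaster testis that carried activated forms of the transcription factor Ci were set against somatic cells that carried a chinmo RNAi transgene, by RNA sequencing. The members are libraries, and they were chosen by their labels: 3 libraries labelled Ci and 3 labelled chinmo RNAi, 6 of the 15 libraries of the study. The study sorted cyst lineage cells of 5 genotypes to examine genes that respond to Chinmo, JAK/STAT signalling and Hedgehog (Hh) signalling in somatic stem cells. The 3 control libraries (WT) are used below for reference levels. The Ci males were w/Y and heterozygous for tj-Gal4,UAS-GFPnls and for UAS-Ci5Ncm5 and UAS-Ci5m30, which are joined on 1 chromosome. They were taken 10 days after eclosion. The chinmo RNAi males were w/Y and heterozygous for tj-Gal4,UAS-GFPnls, with UAS-chinmoRNAi (line HMS00036) over UAS-dcr2. They were 2 or 3 days old. The WT males carried tj-Gal4,UAS-GFPnls over UAS-GFPnls, with no further transgene named, and were 10 days old.

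All 3 groups shared the tj-Gal4 driver, which is active in the somatic cyst lineage, and a nuclear GFP reporter under its control. Testes were dissociated and GFP-positive somatic cells were isolated by fluorescence-activated sorting, so every library is a mixture of sorted cells. Transcripts of germline genes were also counted in every library of these 3 groups, as given below. A sample was a pool of 50 to 100 flies, which gave 100 to 200 testes. Age and the UAS-dcr2 transgene, which supplies the enzyme Dicer-2 to strengthen RNAi, differ between the groups exactly as the genotype does, so the effects of genotype, age and UAS-dcr2 cannot be told apart. The labels give no dates or batches. Nor do they state if replicates are independent cultures, and p-values then measure only the spread between these libraries, which may be technical.

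Cyst stem cells sit beside the hub, the niche at the tip of the testis, and their daughters become the cyst cells that enclose dividing germ cells. The hub secretes Hh, which binds the receptor Patched on cyst stem cells, frees Smoothened from inhibition and lets full-length Ci activate target genes, among them ptc itself. The hub also secretes Unpaired, which activates JAK/STAT signalling and with it the transcription factors Zfh1 and Chinmo. Loss of chinmo from cyst stem cells is known to give the somatic cells features of the follicle cells of the ovary.

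Counts assigned to genes ranged from 2087894 to 2943120 in the Ci libraries, from 1666727 to 2197465 in chinmo RNAi and from 1949497 to 2331362 in WT. Genes with at least 1 count numbered 11474 to 13229 in Ci, 8109 to 10846 in chinmo RNAi and 11174 to 11361 in WT. Ribosomal RNA genes took 12.8% to 17.3% of counts in Ci and 17.2% to 19.6% in chinmo RNAi, and mitochondrially encoded genes took 4.64% to 5.5% and 2.9% to 3.48%. Pearson's r of log2 levels between libraries, across genes that are not independent replicates, was 0.859 to 0.912 within Ci, 0.813 to 0.869 within chinmo RNAi and 0.602 to 0.83 between the groups. Ci 1 and chinmo RNAi 3 were the closest pair across the groups. The driver's own gene tj was at 61.9, 43.7 and 35 CPM in Ci and 29.5, 4.5 and 23.2 CPM in chinmo RNAi.

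Levels are given as CPM, read counts normalised to library size after TMM scaling, always in the order of libraries 1, 2 and 3. Changes are log2 of Ci over chinmo RNAi from edgeR's quasi-likelihood model, with its standard error (SE), and a gene is called where the Benjamini-Hochberg adjusted p over all genes tested is under 0.05. Where a group had no count, the fold is a lower bound set from 3 counts over that group's 3 libraries. Such bounds rest on the depth of that group too and are smaller by 1.62-fold throughout without chinmo RNAi 3.

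Of 10056 genes tested, 722 (7.18%) were called higher in Ci and 339 (3.37%) lower, 1061 (10.6%) in all. The rises were wide, with a median log2 change of 4.68 among the called genes, 625 of them over 8-fold, and 191 without any count in chinmo RNAi. With those 191 at their lower bound, the median was 4.08 and 611 were over 8-fold. The falls were narrower, with a median of -2.24 and 102 genes over 8-fold. Over all genes the median was 0.104, and 37.7% of genes had groups without overlap, 22.6% with Ci higher and 15.2% with Ci lower. At an unadjusted edgeR p under 0.05, 1652 of the 10056 genes were higher in Ci than in chinmo RNAi and 931 lower. DESeq2 called 1693 higher and 415 lower. Unadjusted and DESeq2 counts for gene lists below are to be read beside these. Against the same WT libraries, Ci had 1 gene called higher (0.00994%), the gene ci, and 0 called lower, with 128 and 125 genes at an unadjusted edgeR p under 0.05. Chinmo RNAi had 139 genes called higher than WT (1.38%) and 541 lower (5.38%).

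Of the calls, 68% were higher in Ci under TMM scaling. Under RLE scaling, which moved the median over all genes from 0.104 to 0.468, 82.9% were higher, with 1038 genes higher and 214 lower. The counts also leaned on single libraries: without Ci 2 there were 193 higher and 53 lower, without Ci 3 243 and 109, without chinmo RNAi 1 218 and 174, and without chinmo RNAi 2 154 and 92. Without Ci 1 there were 601 and 277, and without chinmo RNAi 3 639 and 234.

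**Figure D1:**
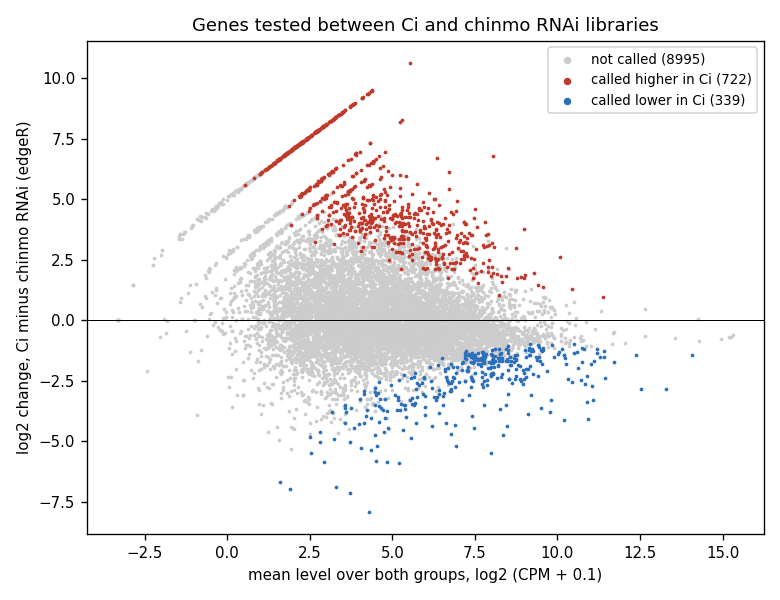
Each point is 1 of the 10056 genes tested, with its mean level over the Ci and chinmo RNAi libraries on the x axis, as log2 (CPM + 0.1), and its fitted log2 change, Ci minus chinmo RNAi, on the y axis. The 722 genes called higher in Ci reach larger changes and lower levels than the 339 called lower.

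The gene ci, which encodes the Hh pathway's transcription factor (chromosome 4, 47710 to 57041, minus strand, dm6, protein-coding), was at 510.4, 284 and 192 CPM in Ci and 46.8, 43 and 39.2 CPM in chinmo RNAi, with 33.4, 31 and 18.5 CPM in WT. The libraries did not overlap, and ci was higher in Ci (log2 change 2.93 ± 0.52 SE, edgeR adjusted p = 0.00233), also without any one library. The counts do not separate the transgene's transcripts from those of the gene. chinmo, which encodes a zinc-finger transcription factor (chromosome 2L, 1651258 to 1704682, plus strand), was at 153, 208 and 106 CPM in Ci and 147, 143 and 61.4 CPM in chinmo RNAi. These groups overlapped and did not pass the test (log2 change 0.41 ± 0.51 SE, edgeR adjusted p = 0.663), and the WT libraries, at 70.8, 75.2 and 69.8 CPM, lay within the range of the chinmo RNAi libraries. The count of chinmo therefore did not separate the groups as their labels would, and directions below are those of the libraries labelled chinmo RNAi. Dcr-2, the gene matching the UAS-dcr2 transgene, was at 289, 173 and 275 CPM in Ci and 362, 379 and 541 CPM in chinmo RNAi and did not pass (log2 change -0.80 ± 0.43 SE, edgeR adjusted p = 0.252), although its groups did not overlap.

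Within the Hedgehog pathway, of 18 genes tested ci rose and hh fell, 5.56% each, against 7.18% and 3.37% of all genes. The list's median log2 change was 0. hh, the ligand (chromosome 3R, 23128169 to 23141906, minus strand), was at 47.2, 9.35 and 36.7 CPM in Ci and 183, 202 and 177 CPM in chinmo RNAi, with 19, 47.3 and 58.9 CPM in WT, so that every chinmo RNAi library was above every Ci and WT library. Its libraries did not overlap and the fall passed the test (log2 change -2.60 ± 0.76 SE, edgeR adjusted p = 0.032), but not without any one library other than Ci 1 (edgeR adjusted p = 0.0578 to 0.167). ptc, the receptor and a standard readout of Ci activity, was at 47.2, 42.8 and 41 CPM in Ci and 25.7, 8.35 and 39.2 CPM in chinmo RNAi. Its libraries did not overlap, with chinmo RNAi 3 close to Ci, and it did not pass (log2 change 0.83 ± 0.87 SE, edgeR adjusted p = 0.596). The WT libraries, at 6.16, 5.57 and 10.9 CPM, were below every Ci library, and WT 3 was above chinmo RNAi 2. Summed over the 18 genes, the level was 1511 to 2033 CPM in Ci and 1304 to 1589 CPM in chinmo RNAi.

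**Figure D2:**
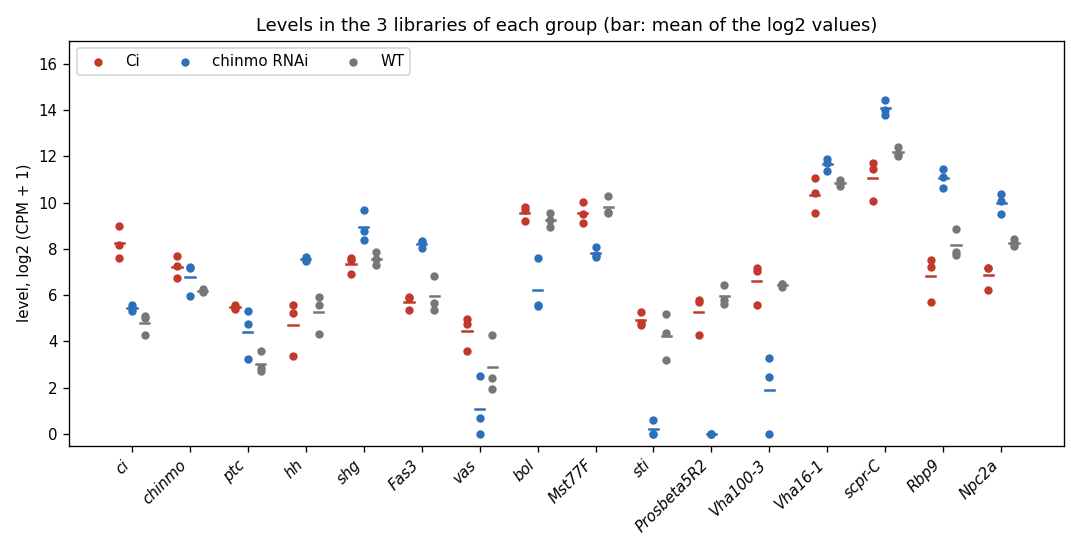
Levels of 16 genes as log2 (CPM + 1), with 1 point per library for Ci, chinmo RNAi and WT and a bar at the mean of the 3 log2 values. The germline and testis-type genes from vas to Vha100-3 have their lowest mean in chinmo RNAi, and hh, Fas3, shg, Vha16-1, scpr-C, Rbp9 and Npc2a lie highest there.

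In the JAK/STAT pathway, 1 of 12 genes tested was called, lower in Ci (8.33%, against 3.37% of all genes), and the median was -0.69. It was Tep2, which encodes a thioester-containing protein of the immune response, at 127, 57 and 78.9 CPM in Ci and 224, 258 and 288 CPM in chinmo RNAi. Tep2 had a log2 change of -1.55 ± 0.46 SE, with an edgeR adjusted p of 0.034. The feedback inhibitor Socs36E overlapped between the groups, at 50.3, 39.5 and 37.5 CPM in Ci and 114, 44.3 and 61.4 CPM in chinmo RNAi. For Socs36E, the fitted log2 change was -0.78 ± 0.61 SE (edgeR adjusted p = 0.453). In the Notch pathway, 1 of 16 genes was called, higher in Ci (6.25%, below the 7.18% of all genes). It was E(spl)mbeta-HLH, a target that encodes a helix-loop-helix repressor. Its level was low, at 13.4, 2.57 and 1.71 CPM in Ci, with no count in chinmo RNAi. E(spl)mbeta-HLH was at least 9.91-fold higher in Ci, or at least 3.6-fold without Ci 1 (edgeR adjusted p = 0.0326). In the insulin, TOR and Myc list, 1 of 16 was called, lower in Ci (6.25%, against 3.37% of all genes). It was Thor, the translation repressor 4E-BP, which is a target of Foxo. Thor was at 188, 66.2 and 139.9 CPM in Ci and 399.6, 425 and 444 CPM in chinmo RNAi, lower in every Ci library than in any chinmo RNAi library (log2 change -1.69 ± 0.4 SE, edgeR adjusted p = 0.0118). Tep2 was not called under RLE scaling (edgeR adjusted p = 0.0747) or upper quartile scaling (0.0523). Each of these 3 calls was lost without at least 1 library, and between them any of the 6 libraries ended a call (edgeR adjusted p = 0.0575 to 0.174).

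No member passed in the BMP (15 genes), EGFR and MAPK (22), Wnt (19), Hippo (11), or JNK and cell death (15) lists. At an unadjusted edgeR p under 0.05 these held 0, 1, 0, 0 and 0 genes higher in Ci and 2, 2, 2, 1 and 4 lower, and DESeq2 called 0, 1, 0, 0 and 0 higher and 1, 0, 0, 0 and 2 lower. The closest to the threshold were sgg, the kinase GSK3 of the Wnt pathway (log2 change -1.18, edgeR adjusted p = 0.0523), stet, a rhomboid protease of germ cells in the EGFR list (edgeR adjusted p = 0.0592, at 2.23, 4.21 and 2.99 CPM in Ci and no count in chinmo RNAi), and Med, the co-Smad of the BMP pathway (-2.25, edgeR adjusted p = 0.0612). Next came Drice, an effector caspase (-2.88, edgeR adjusted p = 0.0672), and kay, the fly Fos (-1.50, edgeR adjusted p = 0.088). In the ecdysone response list 0 of 16 genes passed, with 0 higher and 2 lower at an unadjusted p under 0.05 and 0 called by DESeq2.

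Few genes that mark the cyst lineage passed the test. Of 13 cyst stem cell factors tested, 0 were called higher and 1 lower in Ci (7.69%, against 3.37% of all genes). Of 8 genes of differentiating cyst cells none was called either way. DESeq2 called 1 stem cell factor higher and 1 lower and 2 differentiation genes higher, and at an unadjusted edgeR p under 0.05 there were 1 and 1, and 1 and 0. zfh1, a transcription factor needed for cyst stem cell identity, was at 74.8, 120.2 and 37.5 CPM in Ci and 44.9, 15.4 and 27.9 CPM in chinmo RNAi, with overlapping groups. For zfh1, the fitted log2 change was 1.40 ± 0.78 SE (edgeR adjusted p = 0.271). tj, a Maf factor of early cyst cells, had higher levels in every Ci library, given above, but did not pass (log2 change 1.29 ± 0.92 SE, edgeR adjusted p = 0.409). eya, a phosphatase and coactivator of differentiating cyst cells, was at 353, 136 and 115 CPM in Ci and 165, 240.3 and 263 CPM in chinmo RNAi (log2 change -0.15 ± 0.53 SE, edgeR adjusted p = 0.891), and its sign turned under RLE scaling (0.14). The neprilysin gene Nep5 (2.99, edgeR adjusted p = 0.138) and its relative Nep2 (-1.82, edgeR adjusted p = 0.271) were the closest to the threshold in the differentiation list.

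The called stem cell list member was shg, which encodes E-cadherin, the adhesion protein that anchors stem cells to the hub. It was at 196, 119.7 and 185 CPM in Ci and 337, 821 and 439 CPM in chinmo RNAi, without overlap. shg had a log2 change of -1.67 ± 0.41 SE, with an edgeR adjusted p of 0.0145. Among 8 hub markers, hh and Fas3 were called lower in Ci (25%, against 3.37% of all genes). Fas3, a cell adhesion protein of hub cells that is also made by ovarian follicle cells, was at 57, 39.5 and 59.7 CPM in Ci and 322, 317 and 258 CPM in chinmo RNAi, and WT was at 49.8, 114 and 39.9 CPM. For Fas3, the fitted log2 change was -2.52 ± 0.73 SE (edgeR adjusted p = 0.0302). The other hub markers did not move together with them: none of dpp, the BMP ligand (-1.13, edgeR adjusted p = 0.222), upd1, the JAK/STAT ligand (1.06, edgeR adjusted p = 0.491), and CadN, N-cadherin (1.80, edgeR adjusted p = 0.0874), passed the test. In a sorted mixture, fewer cells of a type and less RNA per cell cannot be told apart. Each of the calls of shg, Fas3 and hh was lost without at least 1 library, and any of the 6 could end one (edgeR adjusted p = 0.0578 to 0.167).

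For the sex of the somatic cells, 0 of 12 sex determination genes passed, with 0 at an unadjusted edgeR p under 0.05 and 0 called by DESeq2. dsx, whose sex-specific isoforms the gene counts do not resolve, was at 169, 119 and 61.9 CPM in Ci and 75, 68.1 and 103 CPM in chinmo RNAi. dsx had a log2 change of 0.50 ± 0.48 SE, with an edgeR adjusted p of 0.554. tra, whose splicing is regulated in females, was at 6.68, 8.42 and 3.41 CPM in Ci and 9.62, 14.8 and 20.6 CPM in chinmo RNAi. For tra, the fitted log2 change was -1.27 ± 0.91 SE (edgeR adjusted p = 0.412). Of 11 follicle cell markers tested of 20 listed, 1 passed, again Fas3, lower in Ci (9.09%, against 3.37% of all genes). The other markers did not fall together with it: 6 of the 11 were positive, and the list's median was 0.33, or 0.0 with genes at 0 at their bound. At an unadjusted edgeR p under 0.05, 1 was higher and 3 were lower, and DESeq2 called 1 and 1. The yolk protein genes were near the floor: Yp1 had 0 counts in Ci and 2 in chinmo RNAi and was not tested, Yp2 was at 0.445, 0 and 0 CPM in Ci and 8.98, 12.8 and 0 CPM in chinmo RNAi (edgeR adjusted p = 0.0965) and Yp3 at 1.34, 1.17 and 2.13 CPM in Ci and 16, 5.78 and 21.2 CPM in chinmo RNAi. Yp3 had a log2 change of -3.18 ± 1.34 SE, with an edgeR adjusted p of 0.132. Of the temporal identity genes, 0 of 8 passed, with 0 higher and 1 lower at an unadjusted edgeR p under 0.05 and by DESeq2. That 1 gene was mamo, a zinc-finger factor, at 27.6, 18.5 and 21.3 CPM in Ci and 114, 151 and 79.5 CPM in chinmo RNAi. For mamo, the fitted log2 change was -2.35 ± 0.76 SE (edgeR adjusted p = 0.0501).

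In 4 lists of genes of the germ line, from early germ cells to spermatids, the calls were all higher in Ci. Of 16 early germline genes, 6 rose and 0 fell (vas, aub, AGO3, bgcn, tut and zpg), against 7.18% of all genes higher, and the median log2 change was 3.08, or 2.55 with genes at 0 set to their bound. vas, the RNA helicase of germ cells (chromosome 2L, 15061656 to 15074311, plus strand), was at 30.7, 25.7 and 11.1 CPM in Ci and 0, 0.642 and 4.64 CPM in chinmo RNAi. vas had a log2 change of 3.55 ± 0.93 SE, 5.90 without chinmo RNAi 3, with an edgeR adjusted p of 0.0188. aub, a Piwi protein of the piRNA pathway, was at 19.2, 35.3 and 14.9 CPM in Ci and 0, 1.28 and 1.03 CPM in chinmo RNAi. For aub, the fitted log2 change was 4.79 ± 1.02 SE (edgeR adjusted p = 0.00821). Both were near 0 in chinmo RNAi 1 and 2. bgcn, which works with bam to end the germ cells' amplifying divisions, was at 34.7, 56.1 and 30.7 CPM in Ci and 2.57, 0 and 1.03 CPM in chinmo RNAi. bgcn had a log2 change of 5.02 ± 1.13 SE, 6.05 without chinmo RNAi 1, with an edgeR adjusted p of 0.0101. tut, a partner of bam and bgcn, was at 3.56, 21.3 and 2.99 CPM in Ci and had no count in chinmo RNAi. tut was at least 15.6-fold higher in Ci, or at least 5.52-fold without Ci 2 (edgeR adjusted p = 0.0111). zpg, the germline gap junction innexin, was at 4.9, 2.81 and 5.55 CPM against no count. zpg was at least 7.44-fold higher in Ci (edgeR adjusted p = 0.0309). These are low levels, and WT was between or beside the groups, with 18.5, 4.38 and 2.85 CPM of vas and 4.62, 1.59 and 16.1 CPM of aub.

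Of 17 genes of the spermatocyte programme, 5 rose (29.4%, against 7.18% of all genes) and 0 fell, and the median was 3.26. bol, an RNA-binding protein of the DAZ family needed for entry into meiotic division, was the most abundant of those called, at 591, 824 and 889 CPM in Ci and 46.2, 45 and 196 CPM in chinmo RNAi. For bol, the fitted log2 change was 3.00 ± 0.73 SE, 4.07 without chinmo RNAi 3 (edgeR adjusted p = 0.0155). Within chinmo RNAi, library 3 held the most bol. can, a testis-specific TBP-associated factor, was at 10.7, 36.5 and 24.3 CPM in Ci and 1.92, 0 and 0.516 CPM in chinmo RNAi. can had a log2 change of 4.80 ± 1.45 SE, 6.16 without chinmo RNAi 1, with an edgeR adjusted p of 0.037. aly, a member of the testis meiotic arrest complex, was at 0, 18.2 and 3.84 CPM in Ci and 0, 0 and 0 CPM in chinmo RNAi, so that Ci 1 and the chinmo RNAi libraries were all at 0 (at least 12.4-fold higher in Ci, or at least 3.23-fold without Ci 2, edgeR adjusted p = 0.0373), and limma-voom did not call it (adjusted p = 0.0717). Rbp4, an RNA-binding regulator of spermatocytes, was mostly from 1 library, at 1.34, 45.4 and 1.28 CPM in Ci and no count in chinmo RNAi. Rbp4 was at least 26.9-fold higher in Ci, or at least 2.2-fold without Ci 2 (edgeR adjusted p = 0.0156). The fifth was CG30401, now named dany, a chromatin factor of spermatocytes (at least 11.4-fold higher in Ci, or at least 5.08-fold without Ci 2, edgeR adjusted p = 0.0289). Leaving out 1 library at a time left 2 to 5 calls in the early list and 0 to 6 in the spermatocyte list, with 0 in the latter without Ci 2 or without chinmo RNAi 2. Of the 11 calls in these lists, aub and bgcn were kept without any one library, and the others reached edgeR adjusted p values of 0.0518 to 0.192.

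Of 37 spermatid differentiation genes, 7 rose (18.9%, against 7.18% of all genes) and 0 fell, with a median of 1.06. Summed over the list, levels were high in both groups, but some members, such as fzo and soti, were low in chinmo RNAi. Mst77F, a chromatin protein of the condensing spermatid nucleus, was at 556, 729 and 1041 CPM in Ci and 203, 213 and 273 CPM in chinmo RNAi. Mst77F had a log2 change of 1.76 ± 0.39 SE, with an edgeR adjusted p of 0.00953. S-Lap8 and S-Lap3, leucyl aminopeptidases that are abundant in sperm, followed: S-Lap8 was at 326, 463 and 483 CPM in Ci and 62.9, 112 and 105 CPM in chinmo RNAi. For S-Lap8, the fitted log2 change was 2.18 ± 0.48 SE (edgeR adjusted p = 0.00958). S-Lap3 was at 569, 753 and 1135 CPM in Ci and 109, 242 and 315 CPM in chinmo RNAi. S-Lap3 had a log2 change of 1.88 ± 0.45 SE, with an edgeR adjusted p of 0.0134. fzo, a mitofusin that fuses spermatid mitochondria, was at 51.7, 138 and 79.4 CPM in Ci and 14.1, 16.7 and 4.13 CPM in chinmo RNAi. For fzo, the fitted log2 change was 2.95 ± 0.84 SE (edgeR adjusted p = 0.0283). soti, an inhibitor of an ubiquitin ligase in spermatid individualization, was at 253, 347 and 451 CPM in Ci and 3.21, 0 and 38.7 CPM in chinmo RNAi, with most of the chinmo RNAi signal in library 3 (log2 change 4.61 ± 1.4 SE, 7.72 without chinmo RNAi 3, edgeR adjusted p = 0.0452). tHMG1, a testis-specific HMG-box protein chosen after its values were seen, was at 192, 227 and 284 CPM in Ci and 6.41, 10.3 and 13.4 CPM in chinmo RNAi. tHMG1 had a log2 change of 4.53 ± 0.62 SE, with an edgeR adjusted p of 2.77e-04.

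All 9 Y-linked fertility genes tested were positive, as were 52.9% of all genes. Of the 9, 3 were called higher (33.3%, against 7.18% of all genes). The median was 3.56, or 3.28 with genes at 0 at their bound. CCY was at 30.7, 37.2 and 33.7 CPM in Ci and 0.641, 5.14 and 0 CPM in chinmo RNAi. For CCY, the fitted log2 change was 4.13 ± 1.08 SE, 6.60 without chinmo RNAi 2, 3.52 without chinmo RNAi 3 (edgeR adjusted p = 0.0188). Pp1-Y1, a phosphatase catalytic subunit, was at 6.68, 8.18 and 8.11 CPM in Ci with no count in chinmo RNAi. Pp1-Y1 was at least 12.9-fold higher in Ci (edgeR adjusted p = 0.0217). Ppr-Y was at 10.7, 18 and 14.9 CPM in Ci and 0.641, 0 and 0.516 CPM in chinmo RNAi. Ppr-Y had 2 counts over the chinmo RNAi libraries, so no fold is given (edgeR adjusted p = 0.0326). WT lay near Ci or between the groups, for example 28.2, 25.9 and 27.5 CPM for CCY. The calls of S-Lap8 and tHMG1 were kept without any one library, the other 7 named in these paragraphs on spermatids and the Y chromosome were not (edgeR adjusted p = 0.051 to 0.139), and the number of spermatid genes called ranged from 1 without chinmo RNAi 2 to 9 without chinmo RNAi 3. For the Y-linked list it was 0 without Ci 2, Ci 3 or chinmo RNAi 1 and at most 3.

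In sums over the tested members, the spermatocyte programme stood at 1190.0 to 2144 CPM in Ci, 270.5 to 607 CPM in chinmo RNAi and 984 to 1708 CPM in WT. The spermatid genes stood at 9798 to 18150.0, 6528 to 8632 and 11280.0 to 20370.0 CPM, the Y-linked genes at 172 to 353, 9.62 to 43.3 and 165 to 237 CPM, and the early germline genes at 271 to 463, 204 to 224 and 226 to 279 CPM. The cells had been sorted as GFP-positive somatic cells, and each of these 4 lists had counts in all 9 libraries. In the chinmo RNAi libraries, 7 to 12 of the 16 early germline genes, 8 or 9 of the 17 spermatocyte genes, 34 to 36 of the 37 spermatid genes and 3 to 6 of the 9 Y-linked genes had a count. In the Ci libraries it was 15 or 16, 16 or 17, 37, and 8 or 9. The part of germline RNA in the other differences between the groups was not tested.

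**Figure D3:**
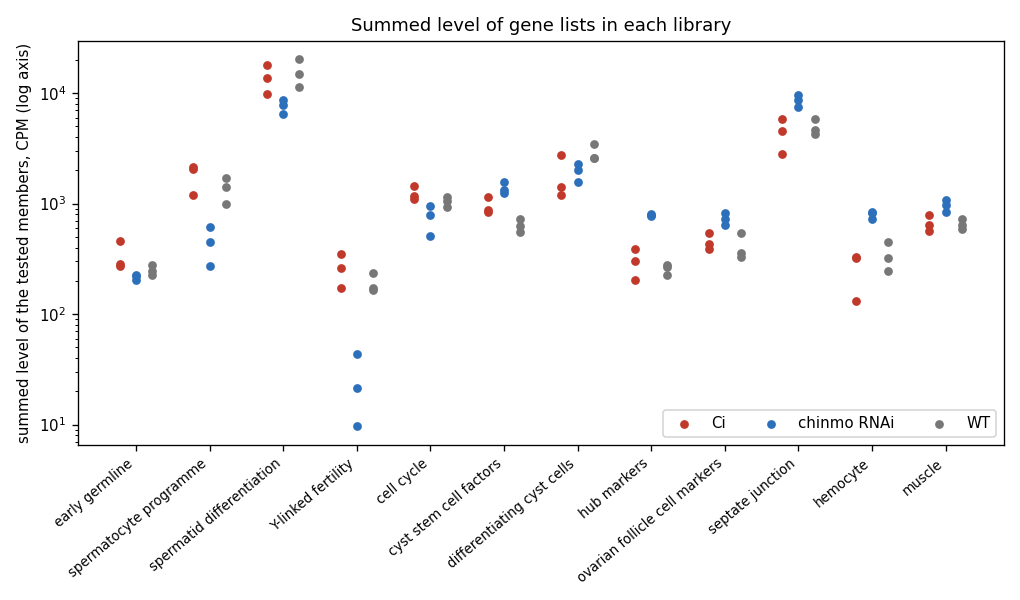
Summed level of the tested members of 12 gene lists in each library, in CPM on a log axis, with 1 point per library for Ci, chinmo RNAi and WT. The Y-linked genes are between 9.62 and 43.3 CPM in chinmo RNAi and between 172 and 353 CPM in Ci. The cyst stem cell, hub, follicle cell, septate junction, hemocyte and muscle lists have every chinmo RNAi library above every Ci and WT library. The median log2 change of the hub list was 0.09, with 4 of 8 members positive. It was 0.33 in the follicle cell list, or 0.0 with genes at 0 at their bound, with 6 of 11 positive. In the muscle list it was 0.41, with 7 of 10 positive. In the cyst stem cell, septate junction and hemocyte lists it was -0.35, -1.05 and -0.84.

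Of 41 cell cycle genes, 5 (12.2%) rose, against 7.18% of all genes, and 0 fell, with a median log2 change of 1.33. sti, the citron kinase of cytokinesis, was at 24.9, 37.9 and 26.5 CPM in Ci and 0, 0 and 0.516 CPM in chinmo RNAi. sti had 1 count over the chinmo RNAi libraries, so no fold is given (edgeR adjusted p = 0.00123). polo, a kinase of mitosis and meiosis, was at 67.2, 189 and 163 CPM in Ci and 9.62, 28.9 and 11.3 CPM in chinmo RNAi. For polo, the fitted log2 change was 3.07 ± 0.76 SE, 3.72 without chinmo RNAi 2 (edgeR adjusted p = 0.0152). aurA, the kinase of centrosome maturation, was at 13.4, 41.1 and 43.9 CPM in Ci and 0, 0 and 3.1 CPM in chinmo RNAi. aurA had a log2 change of 4.82 ± 1.2 SE, with no count left in chinmo RNAi without library 3, with an edgeR adjusted p of 0.0156. Klp61F, the spindle kinesin-5, and fzy, an activator of the anaphase-promoting complex, were also called. The 5 are genes of M phase, which mitotic and meiotic cells share. The part of germline RNA in these rises was not tested. sti was called without any one library, and the list's count fell to 1 without Ci 2 or without chinmo RNAi 1.

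Several metabolic and protein-turnover complexes were split by gene copy. Many such complexes of the fly have extra subunit genes, usually marked by a suffix L, T or R, that are transcribed mainly in the testis. The split by suffix was chosen after values were seen, so it is a description. In nuclear oxidative phosphorylation, 11 of 86 genes (12.8%, against 7.18% of all genes) rose and 0 fell. Of the 18 copies with a suffix, 10 were called and their median log2 change was 3.36 (3.29 with genes at 0 at their bound), while of their 16 partner genes 0 were called and the median was -0.29, which turned to 0.03 under RLE scaling. ATPsynCF6L, a copy of an ATP synthase coupling factor gene, was at 57.5, 77.6 and 114 CPM in Ci and 0, 0 and 3.61 CPM in chinmo RNAi. For ATPsynCF6L, the fitted log2 change was 5.94 ± 1.1 SE, with no count left in chinmo RNAi without library 3 (edgeR adjusted p = 0.00324). COX4L, a copy of a cytochrome c oxidase subunit gene, was at 159, 258 and 326 CPM in Ci and 8.98, 46.9 and 63.5 CPM in chinmo RNAi (log2 change 2.63 ± 0.59 SE, edgeR adjusted p = 0.00979), beside 179, 82.8 and 88.7 CPM in Ci and 115, 219.7 and 130.0 CPM in chinmo RNAi of its partner COX4 (log2 change -0.41 ± 0.56 SE, edgeR adjusted p = 0.697). SdhAL, a copy of the flavoprotein subunit gene of succinate dehydrogenase, was at 14.7, 21.5 and 31.6 CPM in Ci and 0, 0 and 1.03 CPM in chinmo RNAi. SdhAL had 2 counts over the chinmo RNAi libraries, so no fold is given (edgeR adjusted p = 0.0111).

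In the proteasome, 6 of 46 genes rose (13%, against 7.18% of all genes) and 0 fell. All 6 were among the 13 copies with a suffix (median 3.57), with 0 of 10 partners called (median -0.42). Prosbeta5R2, a copy of a catalytic subunit gene (chromosome 2L, 17990418 to 17991951, plus strand), was at 18.3, 54.9 and 51.6 CPM in Ci, 48.2, 86.3 and 54.1 CPM in WT and without a count in chinmo RNAi. Prosbeta5R2 was at least 70.1-fold higher in Ci (edgeR adjusted p = 0.00722). Prosbeta4R1 (at least 62.7-fold higher in Ci, edgeR adjusted p = 0.00465) and Prosalpha3T (at least 36-fold higher in Ci, edgeR adjusted p = 0.0101) also had no count there. Prosbeta5, the partner of Prosbeta5R2, was at 67.2, 72.9 and 49.9 CPM in Ci and 48.7, 54.6 and 65 CPM in chinmo RNAi. Prosbeta5 had a log2 change of 0.18 ± 0.61 SE, with an edgeR adjusted p of 0.889. Reads from near-identical copies could be split or lost in counting, which would touch the copies and their partners.

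**Figure D4:**
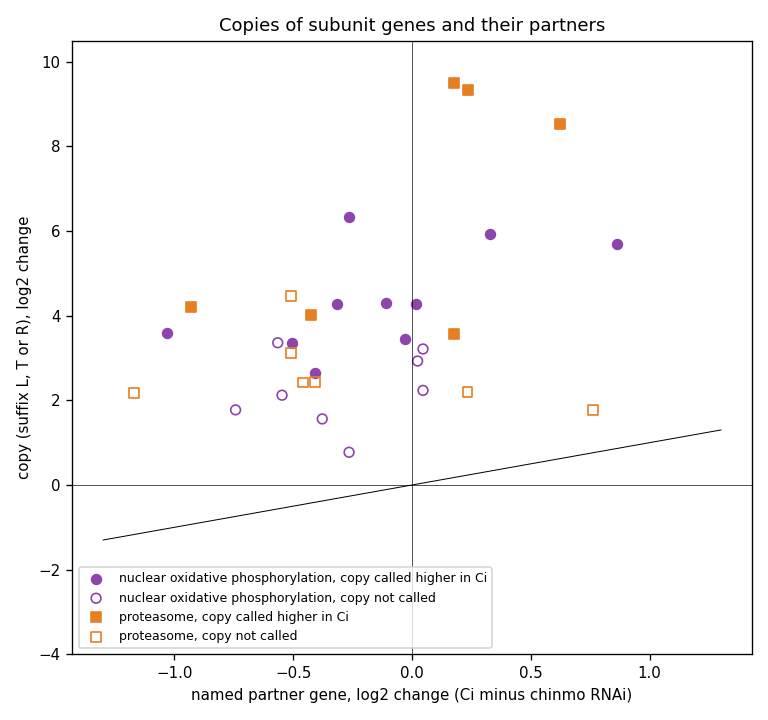
Each point is a copy of a subunit gene, with the log2 change of its named partner on the x axis and its own on the y axis, for 18 oxidative phosphorylation and 13 proteasome copies. Filled points are copies called higher in Ci, and the line marks equal change. All 31 points lie above it. Values of copies without a count in chinmo RNAi depend on the fit and are no fold.

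In ribosomal and translation genes, the shares called higher were below the 7.18% of all genes. Of 92 cytosolic ribosomal protein genes 2 (2.17%) rose and 0 fell, RpS19b and RpL22-like, both copies with high use in the gonads. RpS19b was at 21.4, 73.9 and 39.2 CPM in Ci and 0, 0 and 6.19 CPM in chinmo RNAi. For RpS19b, the fitted log2 change was 4.33 ± 1.11 SE, with no count left in chinmo RNAi without library 3 (edgeR adjusted p = 0.0175). RpL22-like was at 36.1, 122 and 65.3 CPM in Ci and 4.49, 0 and 16.5 CPM in chinmo RNAi. RpL22-like had a log2 change of 3.37 ± 0.89 SE, 5.02 without chinmo RNAi 3, with an edgeR adjusted p of 0.0197. The list's median was -0.57, and 12 of the 92 genes were positive. At an unadjusted edgeR p under 0.05, 4 were higher and 20 lower in Ci, beside 1652 and 931 of all genes. DESeq2 called 4 higher and 0 lower, and limma-voom 3 higher and 10 lower. Of 52 translation factors 3 (5.77%) rose and 0 fell, and all 3 are copies: CG8335, now eIF3f2 (log2 change 3.31 ± 0.98 SE, 4.65 without chinmo RNAi 2, edgeR adjusted p = 0.034), eIF3gb, now eIF3g2 (log2 change 4.02 ± 1.24 SE, 5.48 without chinmo RNAi 3, edgeR adjusted p = 0.0423), and eIF4E-3. The last, a cap-binding protein of the testis, was at 167, 377 and 294 CPM in Ci and 0, 2.57 and 50.0 CPM in chinmo RNAi. For eIF4E-3, the fitted log2 change was 3.96 ± 1.19 SE, 7.70 without chinmo RNAi 3 (edgeR adjusted p = 0.0427). Of 15 calls examined among these copies, those of Prosbeta5R2, Prosbeta4R1, Prosalpha3T, ATPsynCF6L, COX4L and SdhAL were kept without any one library, and the rest were lost without at least 1 (edgeR adjusted p = 0.0542 to 0.141).

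The V-ATPase, the proton pump of lysosomes and other acidic compartments, was called in both directions. Of 28 subunit genes, 6 (21.4%) were higher and 7 (25%) lower in Ci, against 7.18% and 3.37% of all genes. The 6 higher genes were Vha100-3, Vha14-2, Vha16-3, Vha16-5, VhaAC39-2 and VhaPPA1-2. Vha100-3, a membrane subunit gene, was at 46.8, 133 and 145 CPM in Ci and 4.49, 0 and 8.77 CPM in chinmo RNAi. Vha100-3 had a log2 change of 4.57 ± 0.97 SE, 5.55 without chinmo RNAi 3, with an edgeR adjusted p of 0.00821. Vha16-3 was at 7.57, 42.3 and 7.68 CPM in Ci without a count in chinmo RNAi. Vha16-3 was at least 32.3-fold higher in Ci, or at least 12.8-fold without Ci 2 (edgeR adjusted p = 0.0115). VhaPPA1-2 was at 12, 21.3 and 15.4 CPM in Ci and 0, 0 and 0.516 CPM in chinmo RNAi. VhaPPA1-2 had 1 count over the chinmo RNAi libraries, so no fold is given (edgeR adjusted p = 0.0155). The 7 lower genes were Vha100-1, Vha16-1, Vha26, Vha44, Vha55, VhaM8.9 and VhaM9.7-b. Vha16-1, the abundant proteolipid gene, was at 2135, 744 and 1357 CPM in Ci and 2618, 3816 and 3371 CPM in chinmo RNAi. For Vha16-1, the fitted log2 change was -1.21 ± 0.33 SE (edgeR adjusted p = 0.0217). Vha100-1 was at 200.4, 78.8 and 166 CPM in Ci and 390.0, 414 and 513 CPM in chinmo RNAi. Vha100-1 had a log2 change of -1.56 ± 0.41 SE, with an edgeR adjusted p of 0.0188. Vha100-1 and Vha16-1 are singled out after their values were seen. Summed over the list, the level was 3545 to 7162 CPM in Ci and 8733 to 12890.0 CPM in chinmo RNAi. Under RLE scaling 6 were called higher and 3 lower, and without Ci 2, Ci 3 or chinmo RNAi 2 the lower count was 0. Vha100-3 kept its call without any one library, and the call of Vha16-3 was lost without Ci 2 (edgeR adjusted p = 0.0643).

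The 8 genes picked as the widest rises by fitted change, among genes with a name and at least 10 CPM, had no count in chinmo RNAi. Their folds are known only as lower bounds, of which some lie under the changes of genes with counts in both groups, such as ATPsynCF6L, so no order is given. Prosbeta5R2, Prosbeta4R1 and Prosalpha3T, given above, were among them. Taf12L, a copy of a TFIID subunit gene, was at 5.79, 101 and 9.81 CPM in Ci (at least 65.6-fold higher in Ci, or at least 13.1-fold without Ci 2, edgeR adjusted p = 0.00802). Ssl was at 8.91, 55.4 and 20.9 CPM. Ssl was at least 47.9-fold higher in Ci, or at least 25.1-fold without Ci 2 (edgeR adjusted p = 0.0101). ZnT35C, a zinc transporter, was at 4.45, 50.0 and 24.3 CPM. ZnT35C was at least 44.3-fold higher in Ci, or at least 24.2-fold without Ci 2 (edgeR adjusted p = 0.00906). nsr, an RNA-binding protein needed for male fertility, was at 2.23, 64.3 and 4.69 CPM. nsr was at least 40-fold higher in Ci, or at least 5.83-fold without Ci 2 (edgeR adjusted p = 0.0175). Tsp33B, a tetraspanin, was at 10.2, 30.6 and 30.3 CPM. Tsp33B was at least 40-fold higher in Ci (edgeR adjusted p = 0.00802). Within Ci, library 2 held the highest level of each of Taf12L, Ssl, ZnT35C, nsr and Tsp33B. All were present in WT, for example Taf12L at 21.6, 25.5 and 29 CPM. Of these 5, the call of nsr alone was lost without a single library.

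By level, the most abundant genes called higher were mt:CoIII, Pen, CG13164 and CG12699. mt:CoIII, cytochrome oxidase subunit III of the mitochondrial genome, was at 4410.4, 2786 and 3419 CPM in Ci and 1409, 1834 and 2234 CPM in chinmo RNAi (log2 change 0.95 ± 0.3 SE, edgeR adjusted p = 0.0455). It was the only 1 of 13 mitochondrially encoded genes called (7.69%, near the 7.18% of all genes higher). It was not called under upper quartile scaling (edgeR adjusted p = 0.0841) or with only the 6 libraries (0.0765). Pen, importin alpha 2, was at 1591, 1974 and 2389.9 CPM in Ci and 727, 828 and 880.1 CPM in chinmo RNAi. For Pen, the fitted log2 change was 1.29 ± 0.32 SE (edgeR adjusted p = 0.0155). CG13164, now named salto, was at 1461, 1783 and 2348 CPM in Ci and 305, 191 and 425 CPM in chinmo RNAi. CG13164 had a log2 change of 2.60 ± 0.45 SE, with an edgeR adjusted p of 0.00163. CG12699, known only by its number, was at 678, 1133 and 1466 CPM in Ci and 406, 518 and 331 CPM in chinmo RNAi. For CG12699, the fitted log2 change was 1.38 ± 0.4 SE (edgeR adjusted p = 0.0313). orb, a CPEB-family RNA-binding protein of germ cells chosen after its values were seen, was at 163, 282 and 322 CPM in Ci and 43, 53.3 and 23.2 CPM in chinmo RNAi. orb had a log2 change of 2.68 ± 0.61 SE, with an edgeR adjusted p of 0.0106. The calls of CG13164 and orb were kept without any one library.

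The genes called lower included some of the most abundant transcripts of the sorted cells. Obp44a, an odorant-binding protein, was at 12951, 4620.5 and 10149.7 CPM in Ci and 19891, 30478 and 24599.6 CPM in chinmo RNAi (log2 change -1.44 ± 0.37 SE, edgeR adjusted p = 0.0171), higher in every chinmo RNAi library than in any Ci library. scpr-C and scpr-A, members of a small family of secreted CAP-domain proteins on chromosome 3R, fell further: scpr-C was at 2840.1, 1081 and 3328 CPM in Ci and 14106, 22138 and 16512 CPM in chinmo RNAi. For scpr-C, the fitted log2 change was -2.86 ± 0.36 SE (edgeR adjusted p = 8.76e-05). scpr-A was at 1671, 651 and 2022 CPM in Ci and 8079.7, 13158 and 10003 CPM in chinmo RNAi. scpr-A had a log2 change of -2.85 ± 0.36 SE, with an edgeR adjusted p of 1.16e-04. The copies are similar, and how reads were divided between them is not given in the sources used here. Act5C, a cytoplasmic actin, was at 3643, 1409 and 3485 CPM in Ci and 6333, 9446 and 7703 CPM in chinmo RNAi. For Act5C, the fitted log2 change was -1.46 ± 0.34 SE (edgeR adjusted p = 0.0115). WT was at 4170.3, 5449.6 and 4430.3 CPM of scpr-C and 3948, 3317 and 3874 CPM of Act5C, nearer to Ci.

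Idgf3, a chitinase-like secreted growth factor, was the 1 gene called of 6 in its family (16.7%, against 3.37% of all genes lower). It was at 819.9, 365 and 736 CPM in Ci and 2341, 3686 and 3512 CPM in chinmo RNAi. Idgf3 had a log2 change of -2.31 ± 0.35 SE, with an edgeR adjusted p of 5.49e-04. Rbp9, an RNA-binding protein of the ELAV family, was at 147, 51.9 and 181 CPM in Ci and 2225, 2798 and 1586 CPM in chinmo RNAi, and WT was at 214, 471 and 235 CPM. For Rbp9, the fitted log2 change was -4.12 ± 0.48 SE (edgeR adjusted p = 8.76e-05). pAbp, the poly(A)-binding protein, was at 2017, 1076 and 1557 CPM in Ci and 4401, 6529.6 and 4726 CPM in chinmo RNAi. pAbp had a log2 change of -1.75 ± 0.34 SE, with an edgeR adjusted p of 0.00522. Rbp9 and pAbp were chosen after their values were seen. The calls of scpr-A, scpr-B, scpr-C, Idgf3, Rbp9 and pAbp were kept without any one library, and those of Obp44a and Act5C were lost without Ci 2, Ci 3 or chinmo RNAi 2 in at least 1 case (edgeR adjusted p = 0.0504 to 0.0946).

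The widest falls were in genes near 0 in Ci. Obp58c, an odorant-binding protein, was at 0, 0 and 0.427 CPM in Ci and 8.34, 61.7 and 7.22 CPM in chinmo RNAi. Obp58c had 1 count over the Ci libraries, so no fold is given (edgeR adjusted p = 0.0116). Cyp4g1, a cytochrome P450 known from cuticular hydrocarbon synthesis, was the 1 gene called of 39 P450 genes (2.56%, below the 3.37% of all genes lower). It was at 0, 0.234 and 0 CPM in Ci and 36.6, 13.5 and 7.74 CPM in chinmo RNAi. Cyp4g1 had 1 count over the Ci libraries, so no fold is given (edgeR adjusted p = 0.0159). boss, the ligand of the Sevenless receptor, was at 0.891, 1.64 and 0 CPM in Ci and 19.2, 109 and 41.8 CPM in chinmo RNAi. For boss, the fitted log2 change was -5.87 ± 1.36 SE, -6.78 without Ci 2, -4.99 without chinmo RNAi 2 (edgeR adjusted p = 0.012). The chinmo RNAi libraries spread widely for these genes, and which of them was highest differed: chinmo RNAi 2 for Obp58c and boss, and chinmo RNAi 1 for Cyp4g1.

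Cpr62Bc, a cuticle protein gene, was at 0, 1.17 and 0.853 CPM in Ci and 96.2, 21.8 and 15.5 CPM in chinmo RNAi (log2 change -5.84 ± 1.64 SE, -4.60 without chinmo RNAi 1, edgeR adjusted p = 0.0279), and DESeq2 did not call it (adjusted p = 0.114). osk, which organizes the germ plasm of the oocyte, was at 1.78, 0.935 and 0 CPM in Ci and 46.8, 29.6 and 41.8 CPM in chinmo RNAi (log2 change -5.36 ± 1.4 SE, -6.07 without Ci 1, edgeR adjusted p = 0.019), with WT at 2.57, 6.76 and 0 CPM. Rgk1, a small GTPase of the RGK family, was at 0.445, 1.64 and 1.28 CPM in Ci and 71.8, 37.9 and 24.8 CPM in chinmo RNAi. Rgk1 had a log2 change of -5.21 ± 1.23 SE, with an edgeR adjusted p of 0.012. Ag5r, another CAP-domain gene, was at 0, 0.468 and 0 CPM in Ci and 18.6, 12.8 and 2.58 CPM in chinmo RNAi. Ag5r had 2 counts over the Ci libraries, so no fold is given (edgeR adjusted p = 0.0179). Gr21a, a subunit of the carbon dioxide receptor, was at 0, 0.234 and 0.853 CPM in Ci and 20.5, 14.8 and 5.16 CPM in chinmo RNAi. Gr21a had 3 counts over the Ci libraries, so no fold is given (edgeR adjusted p = 0.0246). None of these 8 calls was kept without each of the 6 libraries in turn.

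Septate junctions are the barrier junctions of fly epithelia and of the cyst cells around the germ line. Of 21 genes tested, 0 rose and 4 (19%) fell, against 3.37% of all genes lower. All 21 had a negative log2 change under TMM scaling, where 52.9% of all genes had a positive one. Of the 21, 16 had groups without overlap, against 15.2% of all genes with Ci lower. The median was -1.05, or -0.71 under RLE scaling. Lac, an immunoglobulin-domain protein, was at 185, 70.8 and 179 CPM in Ci and 563, 995 and 605 CPM in chinmo RNAi. For Lac, the fitted log2 change was -2.32 ± 0.51 SE (edgeR adjusted p = 0.00953). cold, a Ly6-type protein, was at 108, 57.3 and 138 CPM in Ci and 202, 425 and 396 CPM in chinmo RNAi. cold had a log2 change of -1.75 ± 0.45 SE, with an edgeR adjusted p of 0.0175. crim, of the same type, was at 62.8, 24.5 and 38.8 CPM in Ci and 102, 210.1 and 178 CPM in chinmo RNAi. For crim, the fitted log2 change was -1.96 ± 0.52 SE (edgeR adjusted p = 0.0205). The fourth was scrib, an apicobasal polarity protein (log2 change -1.18 ± 0.36 SE, edgeR adjusted p = 0.0375), which was not called under RLE scaling (0.061) or without the filter on low counts (0.0785). Without Ci 2 or chinmo RNAi 2 the count was 0, and without Ci 1 it was 5.

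In the basement membrane and integrin list, 0 of 19 genes rose and 2 fell, against 7.18% and 3.37% of all genes. scb, an integrin alpha subunit, was at 211, 112 and 259 CPM in Ci and 698, 827 and 557 CPM in chinmo RNAi. scb had a log2 change of -1.84 ± 0.57 SE, with an edgeR adjusted p of 0.0432. Fit1, a kindlin that activates integrins, was at 76.6, 69 and 108 CPM in Ci and 248, 251 and 191 CPM in chinmo RNAi. For Fit1, the fitted log2 change was -1.44 ± 0.45 SE (edgeR adjusted p = 0.0438). Neither was called under RLE scaling (edgeR adjusted p = 0.0751 and 0.1), where the list's median turned from -0.30 to 0.03, and leaving out any one of the 6 libraries ended both calls. Among 6 innexins tested, zpg, given above, was called higher (16.7%, against 7.18% of all genes).

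Of 22 tetraspanins, 1 rose (Tsp33B, 4.55%) and 3 fell (13.6%), against 7.18% and 3.37% of all genes. Tsp42Ed was at 145, 54.9 and 147 CPM in Ci and 577, 729 and 564 CPM in chinmo RNAi (log2 change -2.43 ± 0.44 SE, edgeR adjusted p = 0.00276), and its call was kept without any one library. Tsp42Ee was at 513, 191 and 308 CPM in Ci and 648, 819.8 and 910.1 CPM in chinmo RNAi (log2 change -1.24 ± 0.37 SE, edgeR adjusted p = 0.0341) and was not called under RLE scaling (0.0879), upper quartile scaling (0.0638) or by DESeq2 (0.0922). Of 28 glutathione S-transferases 1 fell (3.57%, against 3.37% of all genes): GstD1, an enzyme of detoxification, was at 2261, 739 and 1811 CPM in Ci and 2655, 4404 and 4608 CPM in chinmo RNAi. GstD1 had a log2 change of -1.28 ± 0.33 SE, with an edgeR adjusted p of 0.0188. The call of GstD1 was lost without Ci 2, Ci 3, chinmo RNAi 2 or chinmo RNAi 3 (edgeR adjusted p = 0.0524 to 0.0898). Of 12 cuticle protein genes tested of 70 listed, 1 rose (8.33%) and 2 fell (16.7%), against 7.18% and 3.37% of all genes. Cpr56F was at least 13.3-fold higher in Ci (edgeR adjusted p = 0.0197). The lower genes were Cpr62Bc, given above, and Cpr92A. Cpr92A was at 7.13, 6.31 and 15.4 CPM in Ci and 126, 168 and 57.8 CPM in chinmo RNAi (log2 change -3.61 ± 1.02 SE, edgeR adjusted p = 0.0288).

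**Figure D5:**
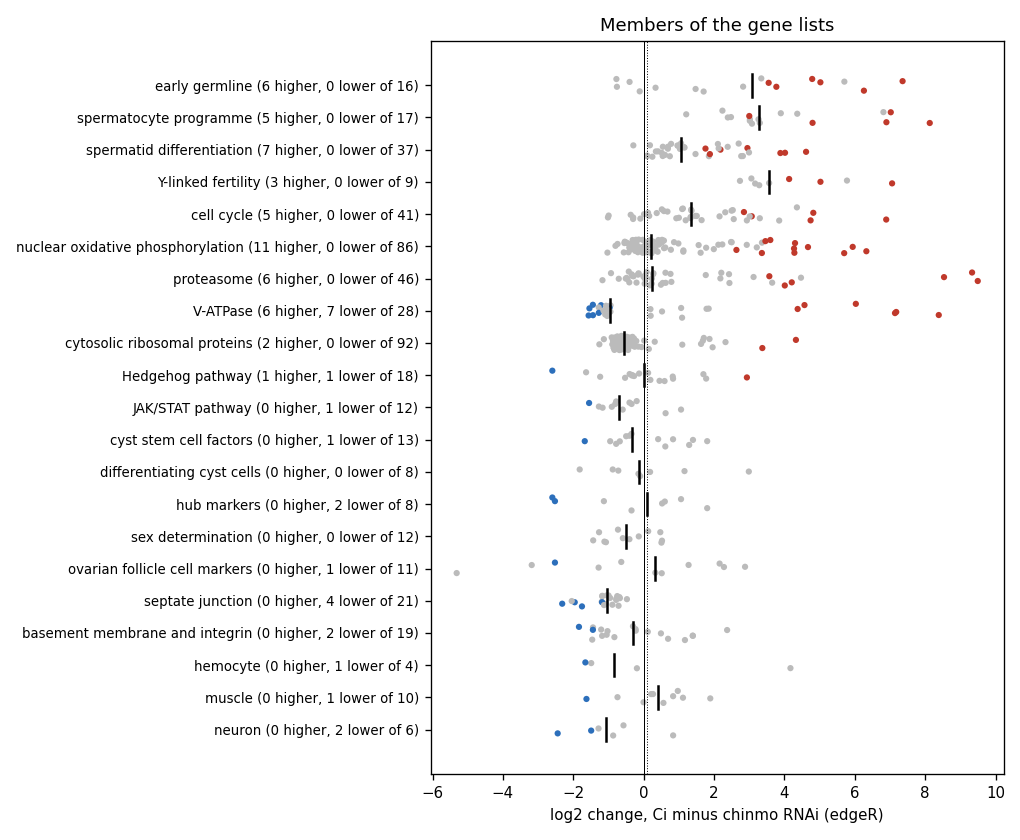
Log2 change, Ci minus chinmo RNAi, of the tested members of 21 gene lists, with 1 point per gene, red for genes called higher in Ci, blue for genes called lower and grey for genes not called. Black bars are list medians, the solid line is 0, and the dotted line is the median over all genes, 0.104. The early germline, spermatocyte and Y-linked lists lie to the right, with medians from 3.08 to 3.56, and the septate junction list lies to the left at -1.05.

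Markers of cell types outside the cyst lineage and germ line were mostly at low levels. Of 10 hemocyte genes 4 were tested and 1 fell (25%, against 3.37% of all genes). It was crq, a scavenger receptor, at 245, 95.6 and 277 CPM in Ci and 604, 632 and 711 CPM in chinmo RNAi (log2 change -1.66 ± 0.41 SE, edgeR adjusted p = 0.0151). The defining hemocyte gene Hml was at 0.891, 4.44 and 3.41 CPM in Ci and 10.3, 0 and 0 CPM in chinmo RNAi. NimC1, eater, He and Pxn were too low to be tested. Summed, the hemocyte list was at 131 to 329.8 CPM in Ci and 725 to 833 CPM in chinmo RNAi, nearly all of it crq and srp. Of 6 neuron genes tested 2 fell (33.3%, against 3.37% of all genes). nSyb, a synaptobrevin, was at 90.4, 27.1 and 39.7 CPM in Ci and 187, 363 and 304 CPM in chinmo RNAi. For nSyb, the fitted log2 change was -2.44 ± 0.63 SE, -3.09 without Ci 1 (edgeR adjusted p = 0.0175). Syx1A, a syntaxin, was at 132, 91 and 113 CPM in Ci and 416, 387 and 144 CPM in chinmo RNAi. Syx1A had a log2 change of -1.49 ± 0.47 SE, with an edgeR adjusted p of 0.0452. The sums of the neuron list were 161 to 288 CPM in Ci and 481 to 808 CPM in chinmo RNAi, and the defining gene elav was at 29.8, 9.82 and 8.96 CPM in Ci and 41, 34.7 and 12.9 CPM in chinmo RNAi. Syx1A was not called under RLE scaling (0.0855) or without the low-count filter (0.063).

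In the muscle list, 10 of 21 genes were tested and 1 fell (10%, against 3.37% of all genes). It was Tm1, a tropomyosin also made outside muscle, at 294, 141 and 199 CPM in Ci and 630.5, 754 and 574 CPM in chinmo RNAi. For Tm1, the fitted log2 change was -1.63 ± 0.38 SE (edgeR adjusted p = 0.0115). Mhc, the defining muscle myosin, was at 9.8, 7.25 and 4.69 CPM in Ci and 5.77, 0 and 4.13 CPM in chinmo RNAi. Sums were 560.2 to 786 CPM in Ci and 842 to 1078 CPM in chinmo RNAi, where most of the sum was Tm1. The list's median log2 change was 0.41, with 7 of 10 genes positive. Of 12 accessory gland genes 1 was tested, Acp36DE (-1.31, edgeR adjusted p = 0.5). In the fat body list, 6 of 10 genes were tested and 0 passed, with 0 higher and 1 lower at an unadjusted edgeR p under 0.05 and 0 by DESeq2. The calls of Tm1, crq, nSyb and Syx1A were each lost without at least 1 library (edgeR adjusted p = 0.0529 to 0.183). The part of such cells in the results was not tested.

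Across all lists, 18 held no called gene, 265 different genes in all. Of these, 9 were higher and 22 lower in Ci at an unadjusted edgeR p under 0.05, beside 1652 and 931 of all 10056 genes. DESeq2 called 10 higher and 4 lower, beside 1693 and 415 of all genes. With limma-voom it was 6 and 8, beside 1453 and 725. Besides those given above, the 18 lists include heat shock, small RNA machinery, glycolysis, immune response, Polycomb, mitochondrial ribosomal protein and tubulin genes. The nearest to a call in these were betaTub85D, the testis beta-tubulin of the meiotic spindle and sperm tail, at 473, 699 and 697 CPM in Ci and 59.6, 24.4 and 150.1 CPM in chinmo RNAi (log2 change 2.99 ± 0.96 SE, edgeR adjusted p = 0.0521), cact, the IkB of the fly (-1.55, edgeR adjusted p = 0.0764), and loqs, a double-stranded RNA-binding partner of Dicer (3.03, edgeR adjusted p = 0.0814).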

How the data were processed

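Polyadenylated RNA of sorted testis cells was sequenced paired-end for 50 cycles. The authors deposited whole-number read counts per gene for 15 libraries. The submitters' processing notes list STAR, HTSeq, Picard, bcl2fastq and DESeq2, with dm6 and BDGP6 as builds. The sources used here give no version, annotation or strand setting, so antisense or overlapping genes cannot be separated, and reads that matched several genes (13.5% to 18.1% of all in these 6 libraries) were not counted to any. A deposited table of normalized values was not used.

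The 5 summary lines were dropped. Of 17408 genes, 10056 passed filterByExpr. Counts were scaled by TMM and fitted with edgeR 4.0.16 (R 4.3.3, glmQLFit robust, glmQLFTest, two-sided) over all 15 libraries with 1 mean per group, so that all groups share 1 estimate of the spread (biological coefficient of variation 65.3%). Limma 3.58.1 (voom), DESeq2 1.42.0, RLE and upper quartile scaling, other filters, fewer libraries and a replicate block were alternatives. Coordinates and current symbols come from the BDGP6.54 annotation, which has dm6 coordinates, and 12888 symbols matched directly and 4343 by 1 synonym. Standard errors come from the fitted model and include its spread between libraries. The lower bounds rest on the floor of 3 counts and include no such spread.

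The groups, gene lists and tests were chosen with earlier results of these data known. Genes are named by a fixed rule: the manipulated genes and standard readouts, the 8 widest rises and falls with at least 10 CPM, the 4 most abundant calls in each direction, and per list up to 3 called members or the 2 nearest to a call. Others are said to be chosen after their values were seen, which also holds for vas, can, aly, fzo, soti, COX4, Prosbeta5, dpp, upd1, CadN, Yp2, Yp3, Hml, elav and Mhc. Sequences are not printed here.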

Additional observations from a re-analysis of the deposited data

How the results depend on the processing

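The counts of genes called higher and lower in Ci, 722 and 339, were 1038 and 214 under RLE scaling, 804 and 345 under upper quartile scaling, 984 and 380 without the low-count filter, and 721 and 340 both with a filter of 5 CPM in 3 libraries and without the 119 ribosomal RNA genes. DESeq2 called 1693 and 415, limma-voom 1453 and 725, and a fit to only the 6 libraries 952 and 625. Leaving out Chinmo replicate 3, a library of neither group, gave 1776 and 635. Leaving out 1 of the 6 libraries gave 154 to 639 higher and 53 to 277 lower. With a replicate block the counts were 457 and 237 over 15 libraries and 844 and 452 over 6, but same-numbered libraries did not deviate together (correlations of -0.036, -0.074 and 0.023), so the numbers name libraries and pair none. The sign of eya, which was not called, turned under RLE scaling (0.14), in DESeq2 (0.14), without Chinmo replicate 3 (0.09) and without Ci 2 or Ci 3 (leaving out 1 library at a time gave -0.83 to 0.13), and that of Hex-C, not called, under limma-voom (0.22) and without chinmo RNAi 2 (leaving out 1 library at a time gave -3.16 to 3.06). The causes were not tested. The fewer counts of chinmo RNAi limit what can be said of genes near 0 there.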

Other observations

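Gene groups outside the lists above were drawn up after the values had been seen, so their counts describe these libraries and support no theme. Genes of the sperm tail's motor and its assembly were higher in Ci. Of 15 genes tested, 13 were called higher (86.7%, against 7.18% of all genes) and 0 lower, with a median log2 change of 3.66. Dhc36C, an axonemal dynein heavy chain, was at 144, 166 and 279.9 CPM in Ci and 19.9, 6.42 and 20.1 CPM in chinmo RNAi. Dhc36C had a log2 change of 3.66 ± 0.75 SE, with an edgeR adjusted p of 0.0072. Dhc98D, another, was at 85.1, 254 and 212 CPM in Ci and 12.8, 0 and 16 CPM in chinmo RNAi. For Dhc98D, the fitted log2 change was 4.24 ± 0.93 SE, 4.83 without chinmo RNAi 3 (edgeR adjusted p = 0.00958). CG17669, now Dnaaf3, a dynein assembly factor, was at 10.2, 68 and 41.4 CPM in Ci and 0, 0 and 0.516 CPM in chinmo RNAi. CG17669 had 1 count over the chinmo RNAi libraries, so no fold is given (edgeR adjusted p = 0.0094). Of 15 centriole and centrosome genes 8 were higher (53.3%) and 1 lower (6.67%), against 7.18% and 3.37% of all genes. cnn, a centrosome scaffold protein, was at 125, 240.4 and 311 CPM in Ci and 6.41, 32.8 and 44.9 CPM in chinmo RNAi. For cnn, the fitted log2 change was 3.00 ± 0.6 SE (edgeR adjusted p = 0.00593). ana1, a centriole protein, was at 70.4, 159 and 123 CPM in Ci and 28.2, 6.42 and 18.1 CPM in chinmo RNAi. ana1 had a log2 change of 2.74 ± 0.71 SE, with an edgeR adjusted p of 0.0185. The lower gene, Plp, was not called under RLE scaling (edgeR adjusted p = 0.102), upper quartile scaling (0.0512), without the low-count filter (0.0966) or by DESeq2 (0.0524). The calls of Dhc36C, Dhc98D, CG17669 and cnn were kept without any one library.

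Lysosomal and actin genes were lower in Ci, as were genes of the endoplasmic reticulum. Of 13 lysosome genes 9 were called lower (69.2%, against 3.37% of all genes) and 0 higher, with a median of -1.52. Npc2a, a sterol-binding protein of the lysosome, was at 145, 72.9 and 144 CPM in Ci and 729.9, 1322 and 1077 CPM in chinmo RNAi, with WT at 301, 279.7 and 343 CPM. For Npc2a, the fitted log2 change was -3.11 ± 0.38 SE (edgeR adjusted p = 8.76e-05). 26-29-p, a cathepsin now named CtsK1, was at 549, 218 and 427 CPM in Ci and 1562, 2947 and 2578 CPM in chinmo RNAi. 26-29-p had a log2 change of -2.57 ± 0.48 SE, with an edgeR adjusted p of 0.00324. Of 23 actin cytoskeleton genes 13 were called lower (56.5%, against 3.37% of all genes) and 0 higher, with a median of -1.37. chic, the profilin of the fly, was at 1719.5, 842 and 1389.9 CPM in Ci and 2637, 3816 and 3615 CPM in chinmo RNAi. For chic, the fitted log2 change was -1.35 ± 0.3 SE (edgeR adjusted p = 0.00966). Of 14 genes of folding and export in the endoplasmic reticulum 8 were lower (57.1%, against 3.37% of all genes) and 0 higher. CrebA, a transcription factor of secretory genes, was at 119.8, 54 and 115 CPM in Ci and 398, 493 and 420.0 CPM in chinmo RNAi. CrebA had a log2 change of -2.18 ± 0.49 SE, with an edgeR adjusted p of 0.01. Hsc70-3, the chaperone BiP, was at 873, 420.4 and 617 CPM in Ci and 1337, 1927 and 1869 CPM in chinmo RNAi. For Hsc70-3, the fitted log2 change was -1.43 ± 0.34 SE (edgeR adjusted p = 0.0129). Under RLE scaling the lower counts were 7 for the lysosome, 6 for actin and 2 for the endoplasmic reticulum, and without Ci 2 they were 4, 3 and 0. The calls of chic, Npc2a and 26-29-p were kept without any one library.

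Carbonic anhydrases moved both ways, with 4 of 9 higher (44.4%) and 3 lower (33.3%) in Ci, against 7.18% and 3.37% of all genes. CG12309, now CAH13, was at 143, 262 and 316 CPM in Ci and 1.92, 2.57 and 18.6 CPM in chinmo RNAi. CG12309 had a log2 change of 4.92 ± 0.91 SE, 6.70 without chinmo RNAi 3, with an edgeR adjusted p of 0.00324. CG9235, now CAH15, was at 34.3, 39.3 and 41 CPM in Ci and 0, 1.28 and 2.06 CPM in chinmo RNAi. For CG9235, the fitted log2 change was 4.98 ± 1.13 SE, 5.77 without chinmo RNAi 3 (edgeR adjusted p = 0.0112). CG18673, now CAH5, was at 2.67, 2.1 and 5.12 CPM in Ci and 182, 24.4 and 25.3 CPM in chinmo RNAi. CG18673 had a log2 change of -4.54 ± 1.34 SE, -2.91 without chinmo RNAi 1, with an edgeR adjusted p of 0.036. Under RLE scaling none of the 3 lower genes was called. The calls of CG12309 and CG9235 were kept without any one library.

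Of the 722 genes called higher, 521 (72.2%) carry a CG or CR number only, and of the 339 called lower 127 (37.5%), beside 50.9% of all genes tested. By annotated class, 66 of 482 noncoding RNA genes tested were called higher, against 7.18% of all genes, and 6 lower. CR43803, a long noncoding RNA, was at 102, 311 and 203 CPM in Ci and 0, 0 and 8.25 CPM in chinmo RNAi, with WT at 158, 488 and 286 CPM (log2 change 6.11 ± 0.98 SE, with no count left in chinmo RNAi without library 3, edgeR adjusted p = 8.49e-04), and its call was kept without any one library. CR32690, another, was at 139, 230.3 and 320.4 CPM in Ci and 14.8, 4.5 and 40.2 CPM in chinmo RNAi. For CR32690, the fitted log2 change was 3.52 ± 0.9 SE, 4.57 without chinmo RNAi 3 (edgeR adjusted p = 0.0171). CG7813, now knon, a copy of an ATP synthase subunit gene, was at 241, 418 and 602 CPM in Ci and 12.2, 7.07 and 54.7 CPM in chinmo RNAi. CG7813 had a log2 change of 4.08 ± 0.91 SE, 5.44 without chinmo RNAi 3, with an edgeR adjusted p of 0.0111. The calls of CR32690 and CG7813 were lost without single libraries (edgeR adjusted p = 0.0513 to 0.0833). By chromosome, the share of tested genes called higher was 5.09% on the X and from 6.54% to 8.54% on the 4 large autosome arms. It was 2 of 75 genes (2.67%) on chromosome 4 and 4 of 13 genes on the Y.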
